A study of Sus scrofa with 18 samples.

Results

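The genes of GABA synthesis and of interneuron subtypes were examined in whole fetal pig brain. They were chosen by name, as 9 of the 31908 genes of the gene-wise count table: GAD1, GAD2, SLC32A1, SST, NPY, VIP, CCK, PVALB and CALB2. All 9 were found and all 9 passed the filter on low counts. RNA of the whole brain was sequenced from fetuses of Landrace x Large White gilts bred to the LR-M6 line, at gestation days (GD) 45, 60 and 90. No fetus was treated. The 6 groups (female GD45, male GD45, female GD60, male GD60, female GD90 and male GD90) held 3 fetuses each, 18 libraries in all. At each day the labels gave 3 litter sizes, each for 1 female and 1 male, which were taken as littermates although no litter is named, so the sexes at a day may not be independent.

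GABA is the main inhibitory transmitter of the adult brain. GAD1 and GAD2 encode GAD67 and GAD65, the enzymes that make GABA from glutamate, and SLC32A1 encodes VGAT, which loads GABA (and glycine) into synaptic vesicles. In the cortex, interneurons arise in the ganglionic eminences of the ventral forebrain, migrate into the cortical wall and later take on subtypes, which are told apart by a neuropeptide (somatostatin, NPY, VIP or CCK) or a calcium-binding protein (parvalbumin or calretinin). None of these genes is restricted to cortical interneurons: CCK is also made by glutamatergic neurons, PVALB by Purkinje cells and CALB2 by several kinds of relay neuron. In a whole brain, fewer cells of a type and less RNA per cell cannot be told apart.

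The peptide genes encode precursors from which short peptides are cut, and the bases coding for 3 of these peptides are shown because the counts below are reads of these mRNAs. They were read from the Sscrofa11.1 genome on the minus strand, with the coding frame of RefSeq. For SST, the last 28 codons before the stop (chr13:125337563-125337646) hold somatostatin-28, with somatostatin-14 in capitals. For VIP, the 28 codons lie between 2 cleavage sites in exon 5 (chr1:13614966-13615049), all in capitals. For CCK, the 17 codons before the amidation site (chr13:25940983-25941033) end in the 8 codons of CCK-8, in capitals.
SST: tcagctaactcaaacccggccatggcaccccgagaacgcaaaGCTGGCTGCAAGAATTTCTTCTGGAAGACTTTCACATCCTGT
VIP: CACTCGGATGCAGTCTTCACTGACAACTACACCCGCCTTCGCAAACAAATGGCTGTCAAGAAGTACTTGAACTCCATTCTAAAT
CCK: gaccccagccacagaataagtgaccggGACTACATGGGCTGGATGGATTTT

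In the deposited annotation of Sscrofa11.1, GAD1 (ENSSSCG00000022233) spans chr15:76991928-77034817 on the plus strand, GAD2 (ENSSSCG00000011060) chr10:49313641-49390926 on the minus strand and SLC32A1 (ENSSSCG00000007348) chr17:41689479-41694553 on the plus strand. SST (ENSSSCG00000033815) lies at chr13:125337417-125338850, NPY (ENSSSCG00000016718) at chr18:47985725-47993289, VIP (ENSSSCG00000004078) at chr1:13611311-13620269 and CCK (ENSSSCG00000011277) at chr13:25937645-25946197, all on the minus strand. PVALB (ENSSSCG00000000138) lies at chr5:10955491-10973289 and CALB2 (ENSSSCG00000002730) at chr6:14391146-14420663, both on the plus strand. No exon of any of the 9 genes overlapped an exon of another annotated gene. NCF4, on the opposite strand, overlapped the span of PVALB outside its exons.

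Library totals ran from 15118843 to 19729783 counts in the gene table. The libraries differed in how far the reads of a gene lay toward its 3' end. This was measured in 1002 genes without alternative annotated transcripts, with at least 8 exons and a mean of at least 200 exon counts. The 3' share is the median share of exon counts on the later 50% of exons, by exon number and not by length. It ran from 74.1% in male GD90 replicate 10 to 92.3% in male GD45 replicate 17. This 3' share did not overlap between the sexes at GD90, with 77.3% to 86.6% in females and 74.1% to 75.1% in males. Fits that hold it as a covariate are given beside the fold changes of SST and NPY and the comparisons of the sexes. The brains labelled GD45 replicates 17 and 18 were also the smallest of their day.

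Levels were compared between genes per length, as CPM (reads of the gene, scaled to a common library total) per kilobase of the gene length in the file. On this scale SST was the highest of the 9 genes at every day, with 142 ± 34.6 at GD45, 183 ± 34.4 at GD60 and 233 ± 65.2 at GD90 (mean ± SD, n = 6 fetuses). Its lowest library at each day lay above the highest library of every other gene at that day. CALB2, GAD1, SLC32A1 and NPY followed at GD45 with means of 36.4, 34.8, 33.03 and 29.4, and each overlapped the next. GAD2 and CCK lay lower at GD45, at 10.6 and 3.01, and PVALB and VIP lowest, at 0.607 and 0.121. The order was the same at GD60, and at GD90 it differed in 1 exchange of neighbours, when CCK (21.03) stood above GAD2 (12.5) with no overlap between their libraries. At GD90 CALB2 (122), GAD1 (65.3) and SLC32A1 (46.8) no longer overlapped. SLC32A1 still overlapped NPY (43.0), NPY overlapped CCK, GAD2 overlapped PVALB (8.54) and PVALB overlapped VIP (4.77). This order of the genes depends on the gene lengths used. The longest RefSeq transcript has 784 bases for CCK, against a length of 4109 in the file, and 2455 for GAD2, against 5414.

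**Figure D1:**
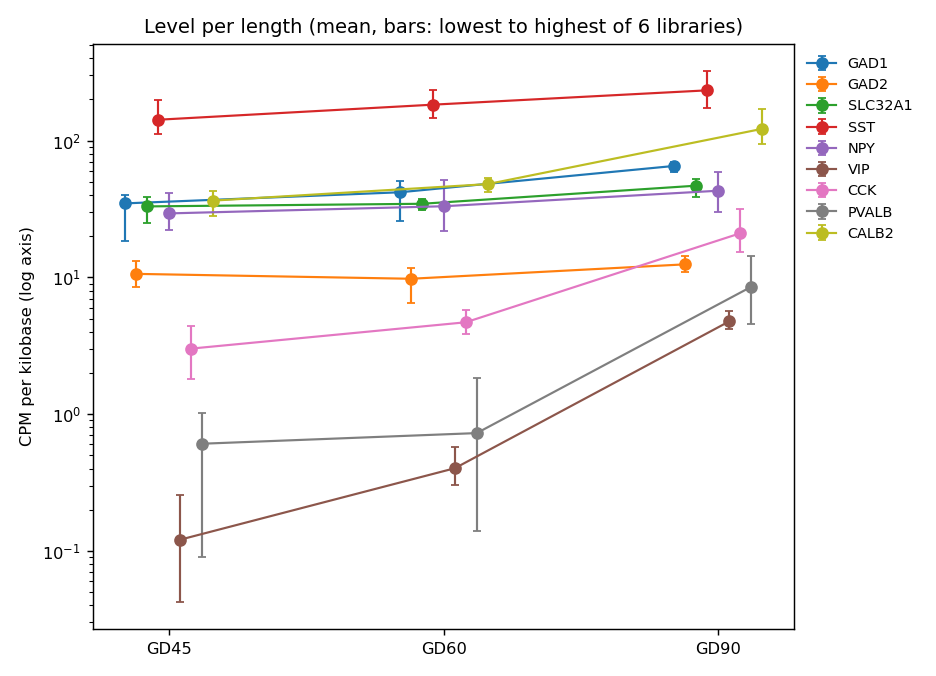
Level of each of the 9 genes in CPM per kilobase of gene length (log axis) at GD45, GD60 and GD90; points are means of 6 libraries and bars run from the lowest to the highest library. SST stays on top from 142 to 233, while VIP rises from 0.121 to 4.77 and, with these gene lengths, CCK passes GAD2 at GD90.

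The genes differed most in how much of their GD90 level was already present at GD45. Mean CPM at GD45 was 85.2% of the GD90 mean for GAD2, 70.5% for SLC32A1, 68.2% for NPY, 60.9% for SST and 53.2% for GAD1. It was 29.8% for CALB2, 14.3% for CCK, 7.11% for PVALB and 2.53% for VIP. At GD60 the values were 78.4% for GAD2, 77.0% for NPY, 78.5% for SST, 73.7% for SLC32A1, 64.2% for GAD1, 39.4% for CALB2, 22.3% for CCK, 8.50% for PVALB and 8.42% for VIP. The synthesis and vesicle genes and the peptides SST and NPY held over 50% of their late level from GD45, and the other peptides and both calcium-binding proteins held under 40% of theirs as late as GD60.

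The comparisons of gestation days, averaged over the sexes, asked which of these genes changed with maturation. With edgeR's quasi-likelihood test and Benjamini-Hochberg adjustment over 16325 genes, 1 of the 9 genes rose from GD45 to GD60, where 9.35% of all genes were called higher and 7.37% lower. From GD60 to GD90, 7 of the 9 rose, where 21.4% of all genes were called higher and 20.9% lower. Between GD45 and GD90, 8 of the 9 rose, where 28.3% of all genes were called higher. No gene of the 9 was called lower in any of these comparisons. The median log2 fold change over the 9 genes was 0.27 for GD60 against GD45 and 0.69 for GD90 against GD60, and over all genes tested it was -0.0070 and -0.010. The comparisons of GD60 with GD45 and of GD90 with GD60 share the GD60 libraries.

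**Figure D2:**
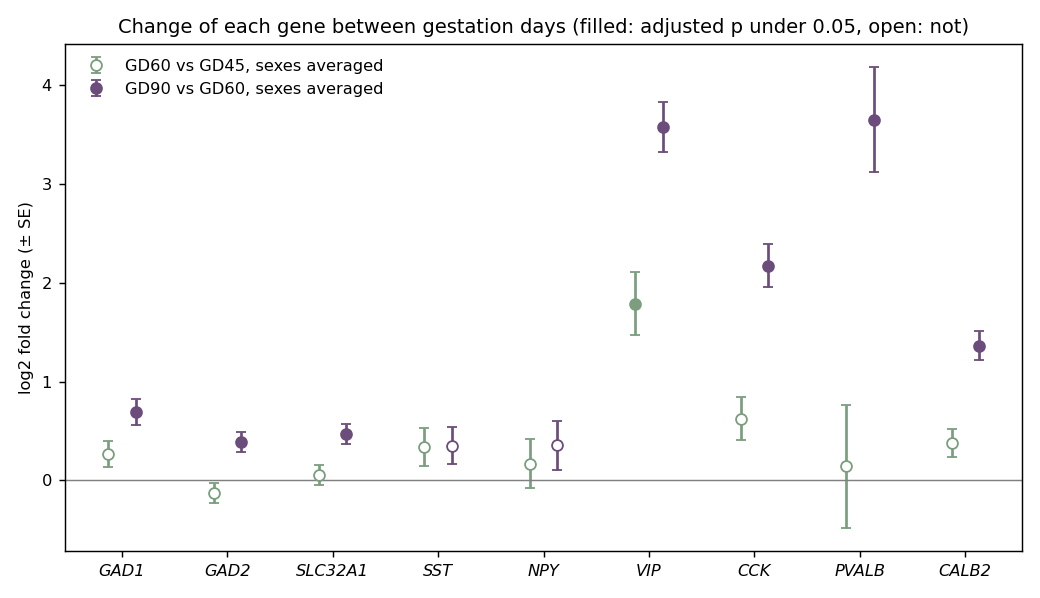
Log2 fold change ± SE of each of the 9 genes for GD60 against GD45 and GD90 against GD60, both averaged over the sexes; filled points passed an adjusted p of 0.05 by edgeR's quasi-likelihood test. Only VIP is filled for the early period, at 1.79, and SST and NPY are the only open points for the late one, at 0.35 and 0.36.

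Among the synthesis and vesicle genes, GAD1 had a median of 154 CPM at GD45 (74.7 to 163 over the 6 libraries), one of 187 at GD60 (106 to 205) and one of 266 at GD90 (239 to 284). Every GD90 library lay above every earlier one, and the GD45 and GD60 libraries overlapped. The rise from GD60 to GD90 was 1.61-fold (log2 fold change 0.69 ± 0.13 SE, adjusted p = 0.000483, edgeR), and that from GD45 to GD60 did not pass the test (0.27 ± 0.13, adjusted p = 0.174, edgeR). The lowest GAD1 level of GD45, 74.7 CPM, was that of male GD45 replicate 17, which had the highest 3' share of all libraries. The other 5 libraries of GD45 held 140 to 163 CPM. In that library 15.4% of the GAD1 exon counts lay before exon 7, against 26.1% to 43.9% in the other 17.

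GAD2 had medians of 59.2, 55.9 and 66.9 CPM at GD45, GD60 and GD90, with ranges over the libraries of 45.7 to 70.9, 34.9 to 63.6 and 59.3 to 77.5. All 3 days overlapped. GAD2 rose 1.31-fold from GD60 to GD90 (log2 fold change 0.39 ± 0.10 SE, adjusted p = 0.0049, edgeR). Over the whole interval from GD45 it rose 1.203-fold (0.27 ± 0.10, adjusted p = 0.0321), and this call was lost without any 1 of 6 libraries: female GD45 replicates 12 and 13, male GD45 replicate 14, female GD90 replicates 2 and 7 and male GD90 replicate 10 (adjusted p = 0.0632 to 0.0753). In all, the call was lost in 9 of 28 alternative fits, these 6 among them, and the log2 fold change over the 28 ran from 0.19 to 0.31. SLC32A1 had medians of 96.2, 98.3 and 138 CPM at GD45, GD60 and GD90, with ranges over the libraries of 70.5 to 109, 87.5 to 106 and 110 to 147. Its GD90 libraries all lay above the earlier ones, with a 1.39-fold rise from GD60 (0.47 ± 0.10, adjusted p = 0.0014, edgeR) and a log2 difference of 0.058 ± 0.10 between GD45 and GD60 (adjusted p = 0.75).

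**Figure D3:**
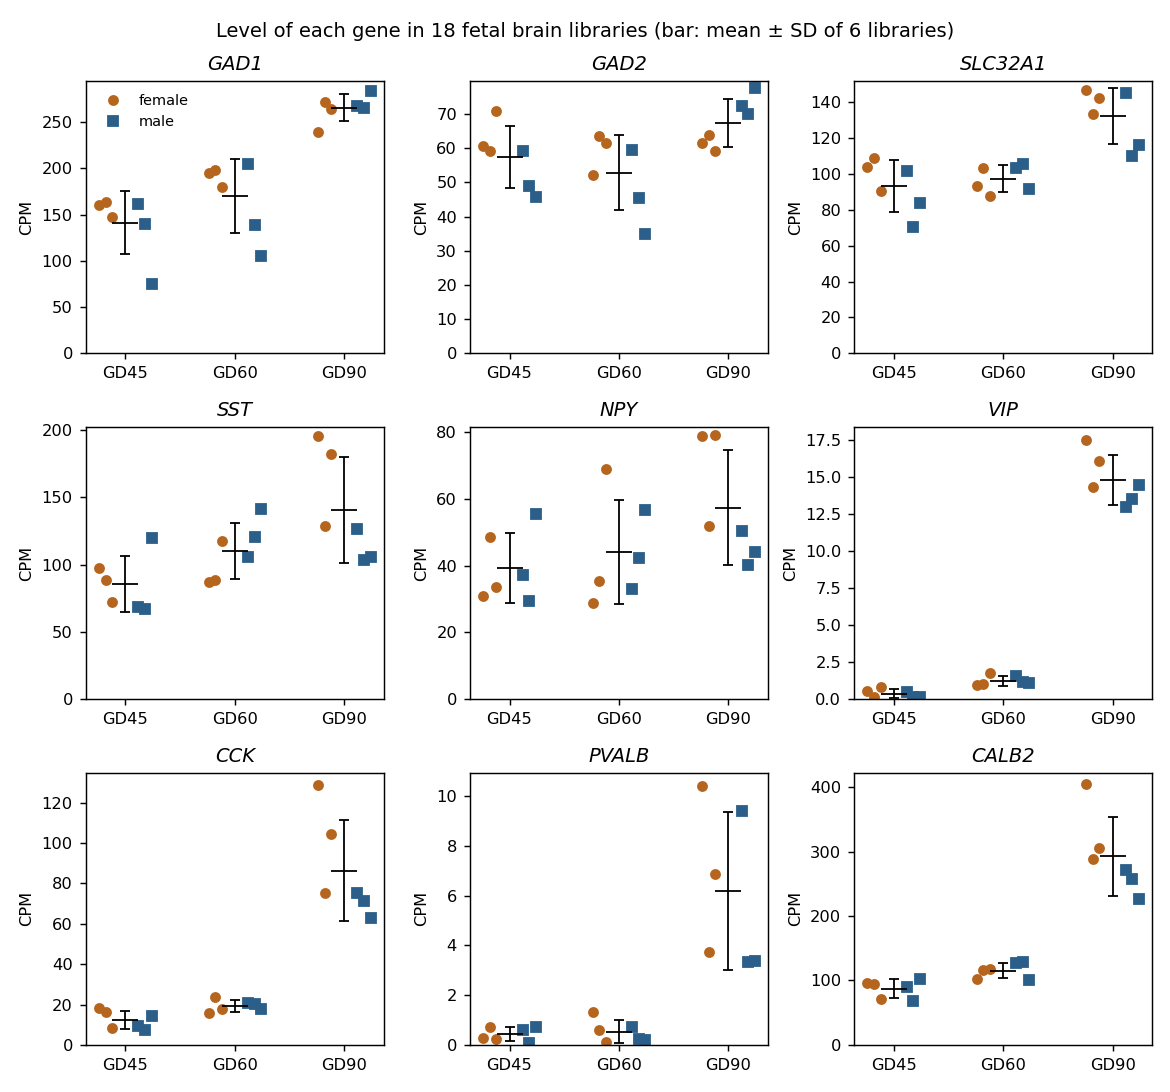
CPM of the 9 genes in each of the 18 libraries by gestation day, with females as circles, males as squares and the mean ± SD of the 6 libraries of a day; each vertical axis starts at 0. Every GD90 library lies above every earlier one for VIP, CCK, PVALB, CALB2, GAD1 and SLC32A1, and GAD2 overlaps across all days. Of all genes, 11.6% had every GD90 library above every GD60 library. The low GAD1 point at GD45 is male GD45 replicate 17 (74.7 CPM).

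VIP, a peptide of interneurons that mainly inhibit other interneurons, changed more than the other 8 genes from GD45 to GD60 and over the whole interval. It had medians of 0.333, 1.11 and 14.4 CPM at GD45, GD60 and GD90, with ranges over the libraries of 0.131 to 0.802, 0.945 to 1.77 and 13.0 to 17.5. These CPM rested on 2 to 13, 15 to 35 and 219 to 309 reads per library. No 2 days overlapped. VIP rose 3.46-fold from GD45 to GD60 (log2 fold change 1.79 ± 0.32 SE, adjusted p = 0.00089, edgeR) and 11.9-fold from GD60 to GD90 (3.58 ± 0.25, adjusted p = 1.5e-08, edgeR). Exon 5, which holds the peptide-coding bases shown above, had 1 read at GD45, 7 at GD60 and 68 at GD90, summed over the 6 libraries of each day.

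CCK, the peptide of basket cells that carry cannabinoid receptors and also a product of many glutamatergic neurons, had medians of 11.98, 19.01 and 75.3 CPM at GD45, GD60 and GD90, with ranges over the libraries of 7.44 to 18.1, 15.7 to 23.5 and 63.1 to 129. The GD90 libraries lay above all others. The rise from GD60 to GD90 was 4.51-fold (log2 fold change 2.17 ± 0.22 SE, adjusted p = 7.9e-07, edgeR), and the early difference missed the threshold (0.63 ± 0.22, adjusted p = 0.0593, edgeR). It passed without male GD45 replicate 17 (adjusted p = 0.00485) and without female GD45 replicate 12 (adjusted p = 0.0472). The exon with the CCK-8 bases took 57.0% ± 8.10 of the CCK exon counts at GD45, 56.9% ± 2.70 at GD60 and 59.0% ± 1.69 at GD90 (SD, n = 6).

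SST, the peptide of dendrite-targeting interneurons, had medians of 80.4, 112 and 128 CPM at GD45, GD60 and GD90, with ranges over the libraries of 66.9 to 120, 87.4 to 142 and 103.6 to 196. The days overlapped. Neither step passed the test (0.34 ± 0.19, adjusted p = 0.251, and 0.35 ± 0.19, adjusted p = 0.149, edgeR), while over the whole interval from GD45 to GD90 SST rose 1.61-fold (0.69 ± 0.19, adjusted p = 0.00559). Both steps passed without male GD45 replicate 17, at 0.56 (adjusted p = 0.00821) and 0.36 (adjusted p = 0.0284, edgeR). That library is not in the late comparison, where the log2 difference hardly moved and the adjusted p fell. The same fit also called more of all genes for the later interaction of sex and day, as given below. A fit with the 3' share of each library as a covariate was added after the data were seen. In it the early step was 0.63 (adjusted p = 0.00019) and the late one 0.56 (adjusted p = 9.8e-05). Male GD45 replicate 17 and male GD60 replicate 16, with the highest SST of their days (120 and 142 CPM), also had the highest sums of pancreas and gut markers, cells of which can make somatostatin, at 27.6 and 35.8 CPM against 3.02 to 11.04 in the other 10 libraries of these days. These sums rest on few genes. Of the 9 genes of this list, 3 had 0 reads in male GD45 replicate 17 and 5 in male GD60 replicate 16. In the other libraries of these days 2 to 7 had 0 reads, and 2 of the 9 passed the filter on low counts. The part of such cells was not tested.

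NPY, which marks neurogliaform and many somatostatin interneurons, had medians of 35.3, 38.8 and 51.2 CPM at GD45, GD60 and GD90, with ranges over the libraries of 29.5 to 55.5, 28.9 to 69.0 and 40.1 to 79.0. It was the only gene of the 9 for which no day comparison averaged over the sexes passed, with log2 differences of 0.17 ± 0.25 for the early step (adjusted p = 0.698), 0.36 ± 0.25 for the late one (adjusted p = 0.265) and 0.53 ± 0.25 for the whole interval (adjusted p = 0.0809, edgeR). The late step passed without female GD60 replicate 15, which had the highest NPY level and the highest 3' share of its day (0.62, adjusted p = 0.036). Pituitary and sympathetic markers, of cells of which the sympathetic ones make NPY, summed to 61.6 CPM in that library and to 0.362 to 2.27 CPM in the other 5 of GD60. At GD45 they were highest in female GD45 replicate 13, at 34.5 CPM, which had the second NPY level of its day (48.5 CPM). Their part in the NPY values was not tested. The whole interval passed without female GD60 replicate 15 (adjusted p = 0.0402) and without male GD45 replicate 17 (adjusted p = 0.0103, edgeR). The first of these is not in that comparison, whose log2 difference without it was 0.52. With the 3' share as a covariate each of these comparisons of NPY passed. The early step was 0.44 (adjusted p = 0.0454), the late one 0.66 (adjusted p = 0.0016) and the whole interval 1.09 (adjusted p = 3.7e-05, edgeR).

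Among the calcium-binding proteins, PVALB, the parvalbumin of fast-spiking interneurons, was barely read before GD90. It held 0.0653 to 0.739 CPM at GD45 (1 to 13 reads), 0.101 to 1.32 at GD60 (2 to 21 reads) and 3.32 to 10.4 at GD90 (51 to 184 reads). The GD90 libraries all lay above the earlier ones, and the first 2 days overlapped. PVALB rose 12.6-fold from GD60 to GD90 (log2 fold change 3.65 ± 0.53 SE, adjusted p = 3.9e-05, edgeR), with an early difference of 0.14 ± 0.62 (adjusted p = 0.907). The SD at GD90 was 51.6% of the mean, and the highest libraries were female GD90 replicate 2 (10.4 CPM) and male GD90 replicate 1 (9.42 CPM), of equal litter size. These libraries also held the highest sums of Purkinje markers at GD90, 327.7 and 345.4 CPM against 231 to 265 CPM in the other 4. The part of Purkinje cells, which also make PVALB, was not tested.

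CALB2, the calretinin of bipolar interneurons and of several relay neurons, had medians of 92.3, 117 and 280 CPM at GD45, GD60 and GD90, with ranges over the libraries of 67.5 to 103, 100 to 128 and 227 to 406. Its GD90 libraries did not overlap the others. It rose 2.58-fold from GD60 to GD90 (log2 fold change 1.36 ± 0.14 SE, adjusted p = 1.2e-06, edgeR). The early difference was 0.38 ± 0.14 (adjusted p = 0.0766) and passed without male GD45 replicate 17 (0.50, adjusted p = 0.00719).

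Within females, none of the 9 genes passed from GD45 to GD60, where 4.34% of all genes were called higher, and 7 rose from GD60 to GD90, where 13.7% were. At an unadjusted p under 0.05, 1 of the 9 passed the early step in females, where 21.4% of all genes did, and DESeq2 called 1, in both cases VIP. In males, VIP rose in the early step (3.08% of all genes called higher) and 6 genes rose in the late step (18.5%). VIP, CCK, PVALB, CALB2 and GAD1 were called in the late step in both sexes, with log2 fold changes of 3.74 and 3.42 for VIP, 2.53 and 1.82 for CCK, 3.52 and 3.79 for PVALB, 1.66 and 1.07 for CALB2 and 0.52 and 0.86 for GAD1 in females and males. The call of GAD1 in females (adjusted p = 0.0461) was lost without any 1 of 13 of the 18 libraries (adjusted p = 0.0535 to 0.107), among them every female library. SLC32A1 was called in females (0.66 ± 0.15, adjusted p = 0.00281), with 0.28 ± 0.14 in males (adjusted p = 0.137). GAD2 was called in males (0.64 ± 0.14, adjusted p = 0.00275), with 0.14 ± 0.14 in females (adjusted p = 0.499).

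SST was called in females, from 87.4, 88.7 and 118 CPM at GD60 to 196, 129 and 182 at GD90 (0.86 ± 0.27, adjusted p = 0.0248, edgeR). The call was lost without female GD60 replicates 3 or 5 or female GD90 replicates 2 or 9 (adjusted p = 0.0713 to 0.108). In males SST held 106, 120 and 142 CPM at GD60 and 126, 103.6 and 106 at GD90 (-0.16 ± 0.27, adjusted p = 0.67). The difference between the 2 changes is given by the interaction of sex and day, which no gene of the 9 passed for either period, with 0 of all genes called (0%). At an unadjusted p under 0.05, 0 and 2 of the 9 passed, where 2.04% and 19.8% of all genes did, and DESeq2 called 0. For SST it was -1.02 ± 0.38 (adjusted p = 0.21, edgeR) and passed without male GD45 replicate 17 (-1.03, adjusted p = 0.0234), a fit that called 13.3% of all genes. With the 3' share as a covariate the interaction of SST was -0.17 (adjusted p = 0.933). In that fit the late step in males passed for SST (0.47, adjusted p = 0.0317) and NPY (0.77, adjusted p = 0.0269, edgeR).

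Males and females at the same day were compared directly. None of the 9 genes was called at GD45, GD60 or GD90, where 0.0919%, 0.098% and 0.098% of all genes were. At an unadjusted p under 0.05, 0, 1 and 2 of the 9 passed, where 2.59%, 4.8% and 13.6% of all genes did, and DESeq2 called 0 at each day. At GD90 the libraries of the sexes nevertheless did not overlap for 5 of the 9 genes, where this held for 36% of all genes. SST held 196, 129 and 182 CPM in females and 126, 103.6 and 106 in males. NPY held 78.8, 51.9 and 79.0 against 50.5, 40.1 and 44.0, CCK 129, 75.5 and 104.3 against 75.2, 71.4 and 63.1, and CALB2 406, 289 and 305 against 271, 257 and 227. GAD2 was the reverse, at 61.4, 63.8 and 59.3 in females and 72.4, 70.0 and 77.5 in males.

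The GD90 differences of SST, NPY, CCK and CALB2 moved with the 3' share. Female GD90 replicate 7, whose 3' share (77.3%) was nearest to that of the males, was also the female nearest to the males for these genes and for GAD2. The log2 differences of males from females at GD90 were -0.65 for SST, -0.70 for NPY, -0.62 for CCK and -0.47 for CALB2 (adjusted p = 0.35 to 0.378, edgeR). With the 3' share as a covariate they were -0.018, 0.067, -0.075 and -0.093. For GAD2 the difference without the covariate was 0.20 (adjusted p = 0.48, edgeR), and that with it is not given here. With only the 6 GD90 libraries in the fit, SST (-0.65) and NPY (-0.69) passed, each with an adjusted p of 0.0468, in a fit that called 6.88% of all genes. Sex and 3' share cannot be told apart in these 6 libraries.

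**Figure D4:**
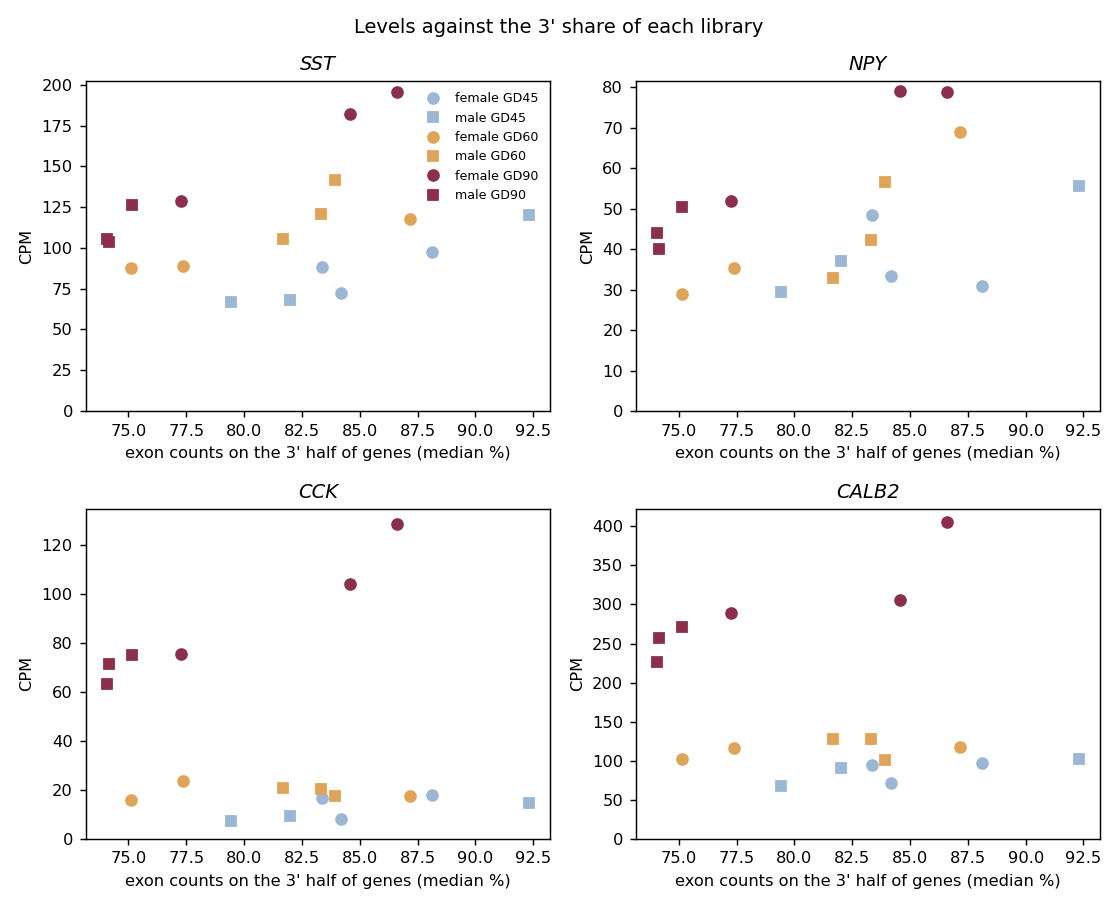
CPM of SST, NPY, CCK and CALB2 in each library against the median percent of exon counts on the later 50% of exons, by exon number. Circles are females, squares are males and each gestation day has a colour. At GD90 the 3 male libraries lie at 74.1% to 75.1% with the lower levels, and the females at 84.6% and 86.6% hold the highest.

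The balance between the genes within a library does not depend on the library total, but its size depends on the gene lengths used. Ratios were taken per length, averaged over the 2 fetuses of equal litter size, here called a litter, and the trend with day over 9 litters was tested by an exact two-sided permutation test over all ways to assign 3 litters to each day, adjusted over 8 ratios. The level of GAD1 to GAD2 rose, from a log2 ratio of 1.68 ± 0.33 at GD45 to 2.09 ± 0.14 at GD60 and 2.40 ± 0.051 at GD90 (SD, n = 3 litters; exact p = 0.00119, adjusted p = 0.00317). In single fetuses the ratio of GAD1 to GAD2 was 2.17 to 3.81 at GD45 and 4.88 to 5.95 at GD90. It also differed with the 3' share within a day, but not in 1 direction. At GD45 it was 2.17 in the library with the highest 3' share, 92.3%, and 3.81 in that with the lowest, 79.4%. Between them, 3.54 at 88.1% lay above 2.77 at 84.2%. At GD60 it was 3.90 at the highest share, 87.2%, and 4.97 at the lowest, 75.1%. At GD90 it was 5.19, 5.95 and 5.67 in the females at 86.6%, 84.6% and 77.3%. The males, at 74.1% to 75.1%, held 4.88 to 5.05. Without the litters of the libraries of highest 3' share at each day, 4 of the 8 ratios had a trend, that of GAD1 to GAD2 among them. The ratio of VIP to GAD1 plus GAD2 rose from -8.71 ± 0.83 to -4.03 ± 0.093, and that of CCK from -3.96 ± 0.18 to -1.93 ± 0.26 (exact p = 0.00119 and adjusted p = 0.00317 for each).

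CALB2 relative to GAD1 plus GAD2 went from -0.30 ± 0.25 to 0.63 ± 0.23 (exact p = 0.00238, adjusted p = 0.00476), so that it stood above their sum in every GD90 fetus, at 1.12 to 2.41 times. PVALB went from -6.41 ± 0.56 to -3.34 ± 0.81 (exact p = 0.0167, adjusted p = 0.0267). Its call was lost without any 1 of 5 of the 9 litters (adjusted p = 0.0514 to 0.0714, exact permutation). The ratios of SST (1.65 ± 0.38 to 1.54 ± 0.26, exact p = 0.724), NPY (-0.63 ± 0.42 to -0.90 ± 0.27, exact p = 0.52) and SLC32A1 (-0.44 ± 0.18 to -0.74 ± 0.18, exact p = 0.0762) showed no trend that passed the test. At GD45 and GD90 the SST ratio was highest in the library of highest 3' share. It was 7.43 in the GD45 library at 92.3%, against 2.24 to 3.20 in the others of that day. At GD90 it was 4.63 and 3.98 in those at 86.6% and 84.6%, against 2.09 to 2.72 in the other 4. The SST ratio did not follow the 3' share at GD60, with 7.25 in male GD60 replicate 16 (83.9%) and 3.51 in female GD60 replicate 15 (87.2%).

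**Figure D5:**
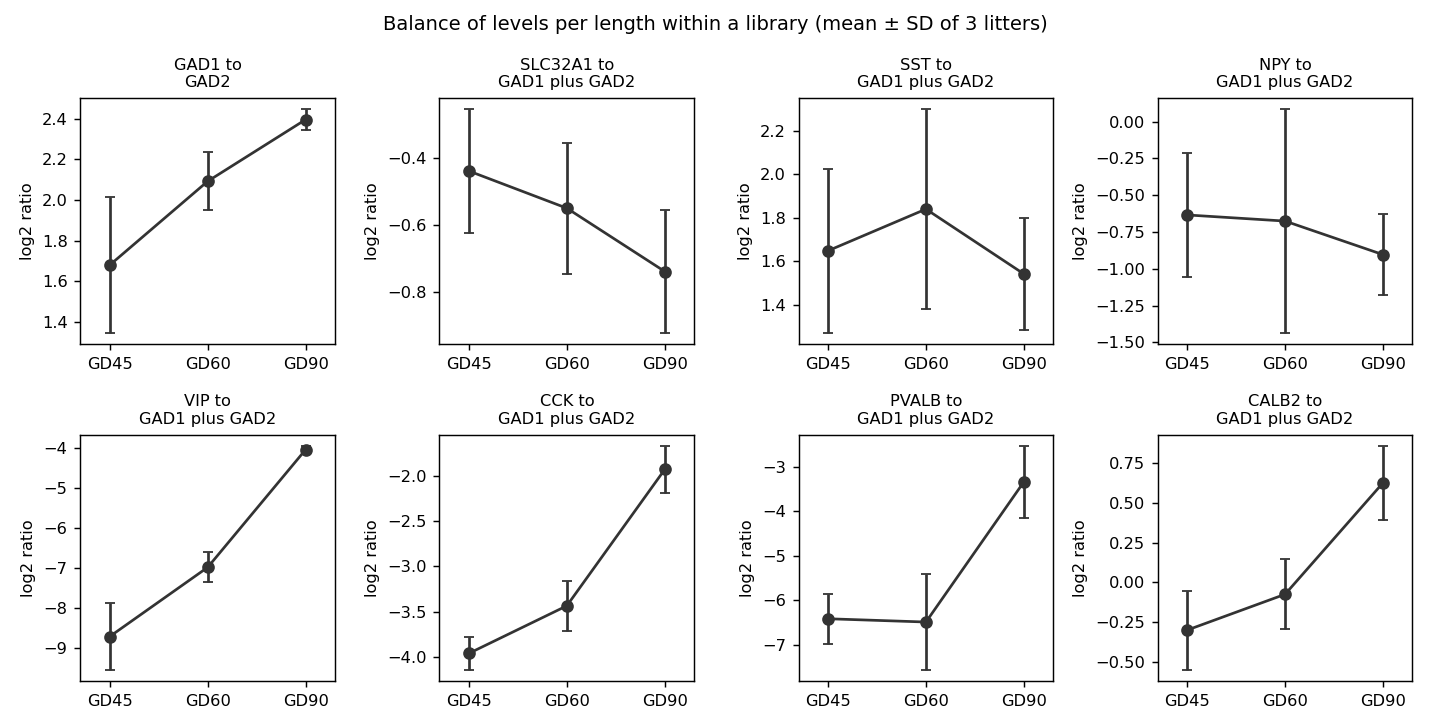
Log2 ratio of levels per length within a library at each gestation day, as the mean ± SD of 3 litters, for GAD1 to GAD2 and for each other gene to GAD1 plus GAD2. GAD1 to GAD2 rises from 1.68 to 2.40 and VIP from -8.71 to -4.03, while SST stays between 1.54 and 1.84.

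Exon usage was compared because GAD1 is known for splice forms of the fetal brain. Of the exons of these genes, 46 were tested, and 0 were called in either step, where 0.013% and 0.1% of all 76800 exons were (edgeR diffSpliceDGE). At an unadjusted p under 0.05, 1 and 0 of them passed, and the share of all exons that did is not given here. An exon of 37 bases, annotated in GAD1-204 alone (chr15:77016139-77016175, plus strand), is shown because it tells that form apart, and it lies in no RefSeq coding sequence of GAD1.
GAD1: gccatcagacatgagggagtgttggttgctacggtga
It had 2 reads at GD45, 17 at GD60 and 10 at GD90 over 6 libraries each, and no library had more than 8. Exons of these genes whose bases all lie in other annotated exons of the gene have 0 counts in the exon table, so forms told apart by such exons could not be separated.

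Among genes related to these 9, one list held those of GABA transport, breakdown and GABA-B receptors. Of 10 tested, 5 rose from GD45 to GD60 and 8 from GD60 to GD90, none fell, and the median log2 fold changes were 0.41 and 0.66. SLC6A11, the GABA transporter GAT3 of astrocytes, rose most in the early step (1.62-fold, adjusted p = 0.0382, edgeR). The lists of related genes were written with earlier results of these data known, and their counts are descriptions, to be read against the shares of all genes called higher (9.35% early, 21.4% late) and lower (7.37% and 20.9%).

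Other interneuron markers moved in both directions. Of 19 tested, 3 rose and none fell in the early step, and 7 rose and 3 fell in the late one (medians 0.19 and 0.33). NOS1, the neuronal nitric oxide synthase, rose 2.31-fold early (adjusted p = 0.0374, edgeR). LAMP5, which marks a neurogliaform class, rose 12.3-fold late, from 7.45 to 90.5 CPM (adjusted p = 1.2e-06), and TAC3, which encodes neurokinin B, fell by 0.60 on the log2 scale (adjusted p = 0.0132).

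Transcription factors that specify the lineage were called lower more often than higher. Of 17 tested, 2 rose and 4 fell in the early step, and 1 rose and 12 fell in the late one, with medians of -0.20 and -0.99. LHX6, a factor of interneurons from the medial ganglionic eminence, rose 1.70-fold to 115 CPM at GD60 (adjusted p = 2.1e-05, edgeR), and its mean at GD90 was 56.8 CPM. GSX1 and GSX2, factors of ventral forebrain progenitors, fell most: GSX1 early, by 0.73 on the log2 scale (adjusted p = 0.0316), and GSX2 late, by 2.28 (adjusted p = 6.6e-09). SATB1 was the factor that rose late (1.37-fold, adjusted p = 0.00689).

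Genes that process and receive the peptides were called higher far more often than lower. Of 11 genes of precursor cleavage, amidation and dense-core vesicles, 4 rose early and 9 late, and none fell (medians 0.14 and 0.78). PCSK1, a convertase that cuts peptide precursors, rose 5.38-fold late, from 7.13 to 37.2 CPM (adjusted p = 1.3e-07, edgeR), and VGF, a granin-like precursor, 1.64-fold early (adjusted p = 0.00121). Of 10 peptide receptors, 5 rose early, and 5 rose and 1 fell late (medians 0.66 and 0.67). VIPR1, a receptor for VIP, rose 6.90-fold late, from 1.08 to 7.07 CPM (adjusted p = 3.1e-07), SSTR5, a somatostatin receptor, 2.28-fold early (adjusted p = 0.00943), and the NPY receptor gene NPY1R fell by 0.28 late (adjusted p = 0.0416).

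For the channels and perineuronal matrix of fast-spiking cells, of 14 genes tested, 7 rose from GD45 to GD60 and 12 from GD60 to GD90, and none fell (medians 0.61 and 1.02). ACAN, the matrix core protein aggrecan, rose 3.71-fold early, from 0.806 to 3.04 CPM (adjusted p = 0.00011, edgeR).

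Markers of other cell types moved with the same days. Pan-neuronal markers summed to 6940 to 8199 CPM at GD45, 8271 to 10097 at GD60 and 9205 to 10232 at GD90. Over the same days glutamatergic markers summed to 1151 to 2039, 1328 to 1577 and 991 to 1120 CPM, with 2 of 8 called higher and 4 lower from GD60 to GD90, and glial markers to 210 to 420, 531 to 694 and 3299 to 4951 CPM. SLC17A7, the vesicular glutamate transporter of cortical and cerebellar granule neurons, was among those that rose, 4.13-fold from 114 to 462 CPM (adjusted p = 2.4e-10, edgeR), while NEUROD6, a factor of cortical projection neurons, fell by 1.80 on the log2 scale (adjusted p = 1.1e-09). Purkinje markers, of cells that also hold PVALB and GAD1, summed to 126 to 169, 145 to 198 and 231 to 345 CPM, with 5 of 6 called higher from GD60 to GD90. Skeletal muscle markers, of tissue that also holds PVALB, summed to 4.02 to 7.44 CPM at GD45, 8.15 to 13.7 at GD60 and 14.3 to 23.1 at GD90, and of 3 tested 1, the actin ACTA1, was called higher in each step. Over all libraries pancreas and gut markers summed to 2.51 to 35.8 CPM and pituitary and sympathetic markers to 0.362 to 61.6. The HOX markers of hindbrain and spinal cord summed to 0 to 99.4 CPM at GD45, 0 to 4.03 at GD60 and 0.193 to 1.48 at GD90. The part of these cell types in the changes of the 9 genes was not tested.

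The genes whose log2 CPM were most like those of each of the 9 over the 18 libraries were listed by Pearson's r, among 12806 others with a symbol and a mean of at least 1 CPM. CCK and CALB2 were each other's nearest (r = 0.987), and no other pair among the 9 was. CCK was followed by DUSP26 (0.986) and CALM3 (0.980), and CALB2 by TMEM130 (0.987) and CHGA (0.985). PVALB was nearest to SYT2 (0.965), a gene of the list of fast-spiking cells, then RGS16 (0.942) and VSTM2A (0.941). VIP was nearest to OSBP2 (0.980), HSPB8 (0.979) and GLRB (0.979), GAD1 to SNX25 (0.981), ACSL4 (0.978) and PDLIM5 (0.975), and SLC32A1 to ENPP6 (0.952), GAS6 (0.938) and PPP1R1A (0.931). SST was nearest to C1QTNF4 (0.959), PDXP (0.954) and SNX21 (0.953), NPY to TUBG1 (0.937), PKM (0.932) and AGPAT1 (0.916), and GAD2 to TMBIM4 (0.876), KCNG4 (0.844) and OR51E1 (0.839). These libraries share 3 days and differ in 3' share, so the values describe likeness over these samples only.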

How the data were processed

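Total RNA of whole fetal brain was enriched for mRNA on oligo(dT) beads and sequenced with paired ends. The authors trimmed reads with Trimmomatic, used HISAT2 to align them to Sscrofa11.1 and featureCounts to count reads per Ensembl feature, and deposited raw counts per gene, exon and transcript. The options for strand and for reads with several matches are not given in the sources used here. The transcript counts were not used here. The 22 columns belong to 18 libraries, because 4 libraries have 2 runs, which were summed. Genes were named by the symbols of the file, and related genes lacking one there by a table of gene names.

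CPM were computed from the library totals, and levels per length from the gene length in the file. Gene counts were fitted with edgeR 4.0.16 in R 4.3.3 (filterByExpr, TMM, 1 model of 6 groups, quasi-likelihood F test, Benjamini-Hochberg adjustment over 16325 genes, threshold 0.05). The SE is the log2 fold change over the root of F. Exon usage was tested with diffSpliceDGE. Ratios within a library used a pseudocount of 0.5 counts and log2 CPM a prior count of 2. The coding stretches were found by translating the RefSeq coding sequences of Sscrofa11.1 and searching for cleavage sites. Every gene end in the file lay within the chromosome lengths of that genome. The fits were tested on simulated data.

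The 9 genes and all lists were chosen with earlier results of these data known. The named genes are the 9, the 3 genes most like each of them, and, from each list of related genes, the called gene that rose most and the one that fell most in each step. Some genes that this rule names are not reported here. CPM rest on reads without molecular identifiers, so counting limits cover counting error only. A male and a female of 1 day with the same litter size were taken as littermates, and p-values of the sexes averaged treat them as independent. The correlations of littermates' deviations from their group means ran from -0.093 to 0.42, not all over 0.1.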

Additional observations from a re-analysis of the deposited data

Results flagged for a closer look

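Of 27 sets of 6 libraries (9 genes at 3 days), 1 had a library farther from the others than Dixon's 95% limit, and chance gives about 1 in 20 such sets. GAD1 in male GD45 replicate 17 was the lowest of its day at 74.7 CPM, where the nearest of the other 5 libraries held 140 CPM. The gap was 0.737 of the range of the 6 libraries, with a critical value of 0.625. This library also had the highest 3' share of the 18, 92.3%, and the fewest exon counts for GAD1. Whether the 3' share set its GAD1 level was not tested.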

How the results depend on the processing

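The rises of VIP, CCK, PVALB, CALB2, GAD1, GAD2 and SLC32A1 from GD60 to GD90, averaged over the sexes, passed under every alternative run, and 7 to 9 of the 9 genes were called. The number called from GD45 to GD60 depended on the setting. For GD60 against GD45 with the sexes averaged (1 of the 9 genes called), it was 5 with the 3' share as a covariate, 4 without the library of highest 3' share at each day, 3 with 9 litters as units, with each library's length trend removed or without TMM factors, and 2 with DESeq2, the likelihood ratio test or no filter on low counts. The share of all genes called higher was 9.35% at first, 12.6% with the covariate, 13.1% without those libraries and 4.8% to 11% in the others named. In females (0 called) the number was 3 with the covariate (6.13% of all genes higher) and 1 with DESeq2, the likelihood ratio test or the length trend removed, and in males (1 called) 4 with the covariate (6.32%) or without the libraries of highest 3' share (6.37%), 2 with the length trend removed and 0 with only the 6 libraries compared, where 0% of all genes were. Without those libraries the interaction of sex and day called 1 gene for GD45 to GD60 and 2 for GD60 to GD90, with 6.28% and 19.1% of all genes. With only the 6 libraries compared, 2 genes differed between the sexes at GD90. Leaving out 1 library gave 0 to 1 called in females and 1 to 4 both in males and with the sexes averaged from GD45 to GD60, and 0 to 1 for the later interaction. The highest counts in males, averaged and in the interaction came without male GD45 replicate 17, and those in females without female GD45 replicate 18, male GD45 replicate 11 or male GD45 replicate 17. The cause was not tested. For the fits with 1 library left out, the share of all genes called is not given here. Nor is it for the 1 called in females and the 2 in males. None of these counts can be read as particular to the 9 genes. The settings that use the 3' share were chosen after seeing the data.

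Some differences that had not passed the test changed direction. With the 3' share as a covariate the log2 difference of NPY in males from GD60 to GD90 (-0.0021) was 0.77 and passed (adjusted p = 0.0269). That of SST was 0.47 and passed too (adjusted p = 0.0317, edgeR). In the same fit that of SLC32A1 in females from GD45 to GD60 was 0.0068. The later interactions of CCK (-0.71) and NPY (-0.72) were 0.030 and 0.22, and the GD90 sex difference of NPY (-0.70) was 0.067. The NPY value in males was 0.0047 with DESeq2, 0.25 with the length trend removed, 0.0043 with a filter of 1 CPM, 0.032 without TMM factors and 0.0012 without the libraries of highest 3' share. The SST value was 0.19 with the length trend removed. Without those libraries NPY in females from GD45 to GD60 was -0.25 and PVALB in males 0.16. With 1 library left out, the values from GD45 to GD60 ran from -0.16 to 0.016 for GAD2, -0.25 to 0.53 for NPY and -0.32 to 1.35 for PVALB in females. In males they ran from -0.22 to 0.46 for NPY and -1.15 to 0.16 for PVALB. With the sexes averaged they ran from -0.098 to 0.37 for NPY, -0.34 to 0.50 for PVALB and -0.022 to 0.097 for SLC32A1. NPY in males from GD60 to GD90 ran from -0.20 to 0.27. With 1 litter left out, r of the SST ratio with day ran from -0.29 to 0.071, and 4 to 5 ratios had a trend. With litter as a replicate block, 0 of the 9 genes differed between the sexes or in the interaction, as without it. VIP and PVALB rested on 39 and 45 reads in all at GD45, which limits their early differences.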
